A study of Mus musculus with 24 samples.

Results

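The grandpaternal effect at 2 ages of mouse development was compared gene by gene. For each gene the difference between grandoffspring of obese (SL) and of control grandfathers was taken in liver at postnatal day 7.5 (PD7.5) and in ED14.5 samples (embryonic day 14.5), and the ED14.5 difference was subtracted from the liver difference. A positive value of this difference of differences means that SL minus control was higher in the liver, and a negative value that it was higher at ED14.5. The comparison used 16 of the 24 arrays of the series, 4 in each of 4 groups: ED14.5 control, ED14.5 SL, PD7.5 liver control and PD7.5 liver SL. Every animal belonged to ICR-CD1, an outbred mouse strain. The labels do not tell what SL stands for, how obesity was brought about, and if arrays within a group share a litter or a grandfather. The p-values therefore measure only the spread between these samples, which may be technical. All 19505 genes with a named probe set were tested, and 9672 of them lay above array background on average at both ages. Only these 9672 were described as genes measured at both ages.

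Single-colour expression arrays report 1 fluorescence summary per gene, here on the log2 scale, so that a difference of 1 is a doubling. The liver changes its work between these ages. In the fetus it is the main site of red cell formation and is rich in dividing erythroid precursors, while after birth hepatocytes take over fuel metabolism and burn the fat of milk. Cold-inducible RNA-binding proteins, fatty acid oxidation, glucocorticoid signalling and interferon signalling are programs of liver cells that respond to temperature, fasting, stress and infection, and they are described below in that order after the single genes.

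The ED14.5 samples are labelled whole embryo, but their transcripts were those of liver and blood. The 12 hepatocyte markers stood at percentile 98.8 to 99.1 of all genes on the 8 ED14.5 arrays and the 11 definitive erythroid markers at 95.5 to 96.7. The markers of neurons stood at percentile 26.6 to 30.6, those of skeletal muscle at 34.6 to 38.7 and those of cartilage at 34 to 36.4. In the PD7.5 liver the hepatocyte markers stood at 99.6 to 99.7. The erythroid markers there stood at 69.3 to 78.3 on the control arrays and at 54.8 to 73.2 on the SL arrays, with 11 of 11 above background on every control array and 7 of 11 on every SL array. Fewer cells of a type and less RNA per cell cannot be told apart in such bulk samples. The Y-linked gene Eif2s3y lay above background on 2 of 4 ED14.5 control arrays, 1 of 4 ED14.5 SL arrays and all 4 arrays of both liver groups. The 2 ages thus also differ in labelled material, erythroid marker level and Y-linked signal. A difference between the ages cannot be told apart from a difference in these. The separation of positive from negative control probe sets, a measure of array and RNA quality, averaged 0.9015 on the SL liver arrays and 0.9126 on the control liver arrays (exact two-sided permutation p = 0.0286, the smallest that 4 against 4 arrays allow). At ED14.5 it averaged 0.9146 and 0.914 (exact permutation p = 0.886). Every SL liver array lay below every control liver array in this separation. The SL effect in the liver therefore cannot be told apart from array or RNA quality.

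The SL effect differed between the ages for 1 gene of 19505, Cirbp, a share of 0.00513% (limma, Benjamini-Hochberg adjusted p below 0.05). Cirbp encodes the cold-inducible RNA-binding protein, which binds messenger RNAs and rises when cells are cooled mildly. At ED14.5 its log2 value was 8.17, 8.33, 8.39 and 8.44 on the control arrays and 10.03, 10.04, 10.10 and 10.31 on the SL arrays. In the liver it was 8.93, 8.99, 9.27 and 9.41 on the control arrays and 9.26, 9.31, 9.40 and 9.41 on the SL arrays. The ED14.5 groups were apart by more than 1 log2 unit with every SL array above every control array, and the liver groups overlapped. SL minus control was 1.79 at ED14.5 (limma adjusted p = 2.04e-06) and 0.20 in the liver (limma adjusted p = 0.563), both with an SE of 0.119. The difference of differences was -1.59 with an SE of 0.169 and a 95% interval from -1.95 to -1.23 (limma adjusted p = 0.00143). With the replicate number within each age as a block, no gene passed and the adjusted p of Cirbp was 0.0913, at the same difference of -1.59. At an unadjusted p below 0.05 there were 1826 genes, where 975.2 would be expected with no difference at any gene.

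The promoter of Cirbp is shown because this gene carries the called difference, with those of Ddit4 and Pdk4, whose differences are described next. Each is the 250 bases before the start of transcription that RefSeq gives on GRCm38.p6, 5′ to 3′ on the gene's own strand. For Cirbp the more upstream of 2 starts was taken. Capitals mark matches on either strand to TCCCCGCC, a motif described for cold induction of this gene, and to CCAAT, a common promoter motif. Searched too, on both strands, were CACGTG, TGACGTCA, TCACNCCAC, TGATGNAA and the interferon-type pair GAAANGAAA. A GAAA pair with a longer spacer and a heat shock repeat were also looked for and are not described here.
Cirbp, chr10:80167589-80167838, plus strand: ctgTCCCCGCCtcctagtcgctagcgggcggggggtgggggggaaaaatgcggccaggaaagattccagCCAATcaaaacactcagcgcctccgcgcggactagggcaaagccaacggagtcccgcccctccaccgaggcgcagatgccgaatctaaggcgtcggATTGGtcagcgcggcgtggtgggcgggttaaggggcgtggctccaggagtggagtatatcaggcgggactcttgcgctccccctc
Ddit4, chr10:59951771-59952020, minus strand: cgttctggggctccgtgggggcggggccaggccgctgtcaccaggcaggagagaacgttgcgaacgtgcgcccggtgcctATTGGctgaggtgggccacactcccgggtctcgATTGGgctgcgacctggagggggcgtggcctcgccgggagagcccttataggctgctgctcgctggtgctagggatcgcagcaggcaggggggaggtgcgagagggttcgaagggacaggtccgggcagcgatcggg
Pdk4, chr6:5496279-5496528, minus strand: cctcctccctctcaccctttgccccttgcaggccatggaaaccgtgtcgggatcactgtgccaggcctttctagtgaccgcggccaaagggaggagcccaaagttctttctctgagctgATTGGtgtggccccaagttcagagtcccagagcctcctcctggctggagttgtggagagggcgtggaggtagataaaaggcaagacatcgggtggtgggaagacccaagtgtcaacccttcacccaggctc
TCCCCGCC was found in Cirbp only, at position 4 from the upstream end, and 4.64% of the 32851 promoter windows of this length hold it. The window of the other Cirbp start does not hold it. CCAAT was found in all 3 and in 33.8% of the windows. The other 5, each in 1.05% to 6.02% of the windows, were found in none of the 3. The same search covered 28 named genes, of which 22 had a promoter entry: TCCCCGCC was found in 1 of them, Cirbp, and CCAAT in 7. TCACNCCAC was found in 2, Ampd2 and Unc93a, and GAAANGAAA and TGATGNAA each in 1, Acnat1. CACGTG and TGACGTCA were found in none. A gene was counted if any of its windows held the motif, so these counts are per gene and the percentages per window. The motifs were chosen after the values of these genes had been seen, and a match is only a match of letters.

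Among the genes above background at both ages, the 12 with the smallest p in the negative direction were Cirbp, Timd2, Dnajb2, Ddit4, Pdk4, H1f3, Mideas, Ampd2, Timm17a, Bid, Cenpt and Eif2ak2. None but Cirbp passed the threshold over all genes (limma adjusted p from 0.134 to 0.213 for the other 11). In a fit limited to the 9672 genes above background at both ages, 15 genes passed, and these were all 12 together with Angptl4, Hk3 and Poli (limma adjusted p from 0.000108 to 0.0473). The count of calls therefore depended on whether dim genes shared the variance estimate and the adjustment. Some named genes lay near background. Ddit4, Pdk4 and Bst2 were above it on 3 of 4 ED14.5 control arrays, Pm20d1 on 3 of 4 ED14.5 SL arrays, Csf3r on 3 of 4 control liver arrays, and Ddit4 and Cenpt on 3 of 4 SL liver arrays. Unc93a and Capsl were above it on 1 of 4 ED14.5 SL arrays, and Capsl on 3 of 4 arrays of both control groups.

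**Figure D1:**
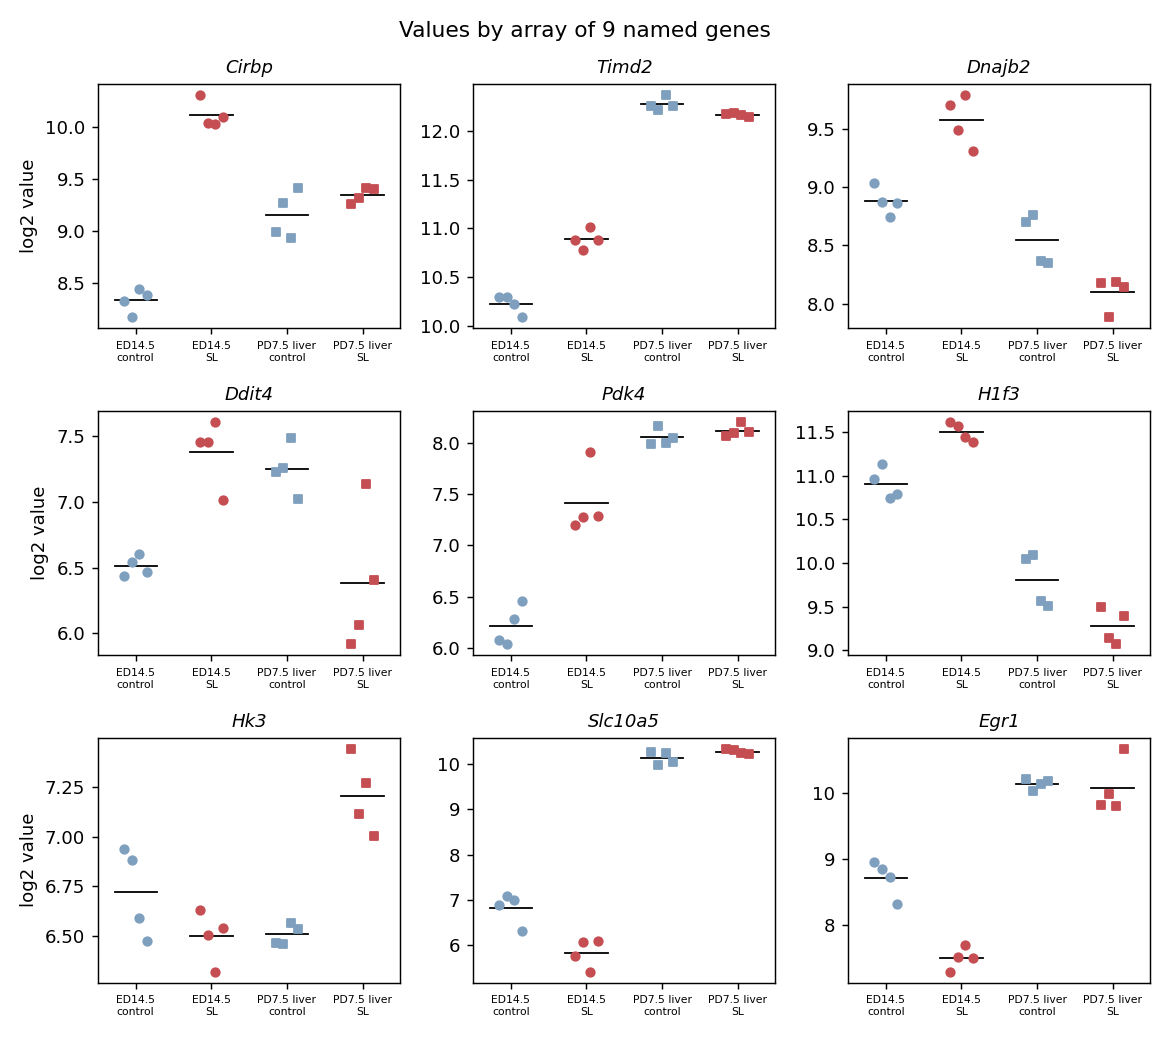
Log2 value on each array (points) and group mean (bars) of 9 named genes, with control in blue, SL in red, ED14.5 as circles and PD7.5 liver as squares, each panel with its own axis. Cirbp, Timd2, Dnajb2, Ddit4, Pdk4 and H1f3 were higher on all 4 SL arrays at ED14.5, and Slc10a5 and Egr1 were lower.

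Timd2, a receptor of the TIM family that takes up ferritin, read 10.09, 10.22, 10.29 and 10.30 on the ED14.5 control arrays and 10.78, 10.88, 10.88 and 11.02 on the SL arrays. In the liver it read 12.21, 12.25, 12.25 and 12.37 against 12.14, 12.15, 12.17 and 12.18. The groups did not overlap at either age, with SL higher at ED14.5 and lower in the liver. SL minus control was 0.66 at ED14.5, where Timd2 passed the test (limma adjusted p = 0.0122), and -0.11 in the liver.

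Ddit4, an inhibitor of the growth kinase mTORC1 that stress and glucocorticoids induce, had one of the larger differences, -1.74 with an SE of 0.299 (limma adjusted p = 0.138). At ED14.5 it read 6.43, 6.47, 6.54 and 6.60 in controls and 7.01, 7.45, 7.46 and 7.61 in SL. In the liver it read 7.02, 7.23, 7.26 and 7.49 in controls and 5.92, 6.06, 6.40 and 7.14 in SL. Its arms were apart at ED14.5, while in the liver 1 SL array lay within the control range. SL minus control was 0.87 and -0.87.

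Pdk4, a kinase that blocks pyruvate oxidation when fat is burnt, read 6.03, 6.07, 6.28 and 6.46 in ED14.5 controls and 7.20, 7.27, 7.28 and 7.91 in ED14.5 SL. In the liver it read 7.99, 8.001, 8.05 and 8.17 against 8.06, 8.09, 8.11 and 8.20. It rose in SL at ED14.5, by 1.20 (limma adjusted p = 0.00396), and the liver arms overlapped with a difference of 0.07. Dnajb2, a co-chaperone, had SL minus control of 0.70 at ED14.5 and -0.45 in the liver, without overlap at either age. The same pattern of values was seen for H1f3, a linker histone (0.60 and -0.53), Timm17a, a subunit of the mitochondrial import channel (0.43 and -0.70), and Eif2ak2, the interferon-induced kinase PKR (0.48 and -0.29). Bid, a pro-apoptotic BCL2 family member, and Cenpt, a kinetochore protein, had SL minus control of -0.85 and -0.65 in the liver and 0.10 and 0.11 at ED14.5.

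In the positive direction the 12 genes with the smallest p were Hk3, Poli, Slc10a5, Wrnip1, Egr1, Cldn1, Pop5, Unc93a, Tec, Capsl, Acnat1 and Nfkbiz, none of which passed over all genes (limma adjusted p from 0.213 to 0.237). Hk3, a hexokinase of myeloid cells, read 6.48, 6.59, 6.89 and 6.94 in ED14.5 controls, 6.32, 6.50, 6.54 and 6.63 in ED14.5 SL, 6.46, 6.47, 6.54 and 6.57 in control liver and 7.003, 7.12, 7.27 and 7.44 in SL liver. Its arms overlapped at ED14.5 and were apart in the liver, with a difference of differences of 0.92 (SE 0.18). Egr1, a zinc finger factor of the immediate early class, fell by 1.21 in SL at ED14.5 (limma adjusted p = 0.0168) and differed by -0.07 in the liver, where 1 SL array at 10.67 stood above the other 3 at 9.81 to 9.99. Slc10a5, a bile acid transporter family member, also passed at ED14.5, at -0.99 (limma adjusted p = 0.0288), with 0.15 in the liver. It was above background on 4 of 4 ED14.5 control arrays and on 1 of 4 ED14.5 SL arrays, so the ED14.5 value is limited by background. Cldn1, a tight junction protein, and Acnat1, an acyltransferase of peroxisomes, had ED14.5 differences of -0.59 and -0.82 that passed (limma adjusted p = 0.0288 and 0.025), with liver differences of 0.05 and -0.02.

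Within single ages, 28 of 19505 genes passed for SL against control at ED14.5 (0.144%; 15 higher and 13 lower), and 0 passed in the liver (0%; smallest limma adjusted p = 0.0743), where 2235 genes had an unadjusted p below 0.05. A gene that passed at ED14.5 and not in the liver is not by that shown to differ between the ages, since the difference itself passed for Cirbp alone. Of the genes above background at both ages, 377 had a positive difference at unadjusted p below 0.05 (3.9%) and 610 a negative one (6.31%), so that 38.2% of them were positive. This split depended on the scaling: the positive share was 51.8% after quantile normalization over the 16 arrays, 51.2% after quantile normalization within each age and 54.4% after centring each array on its median. With the separation of control probe sets as a covariate, 324 were positive and 448 negative at unadjusted p below 0.05. The SL effects at the 2 ages had the same sign for 50.8% of the genes above background at both ages.

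**Figure D2:**
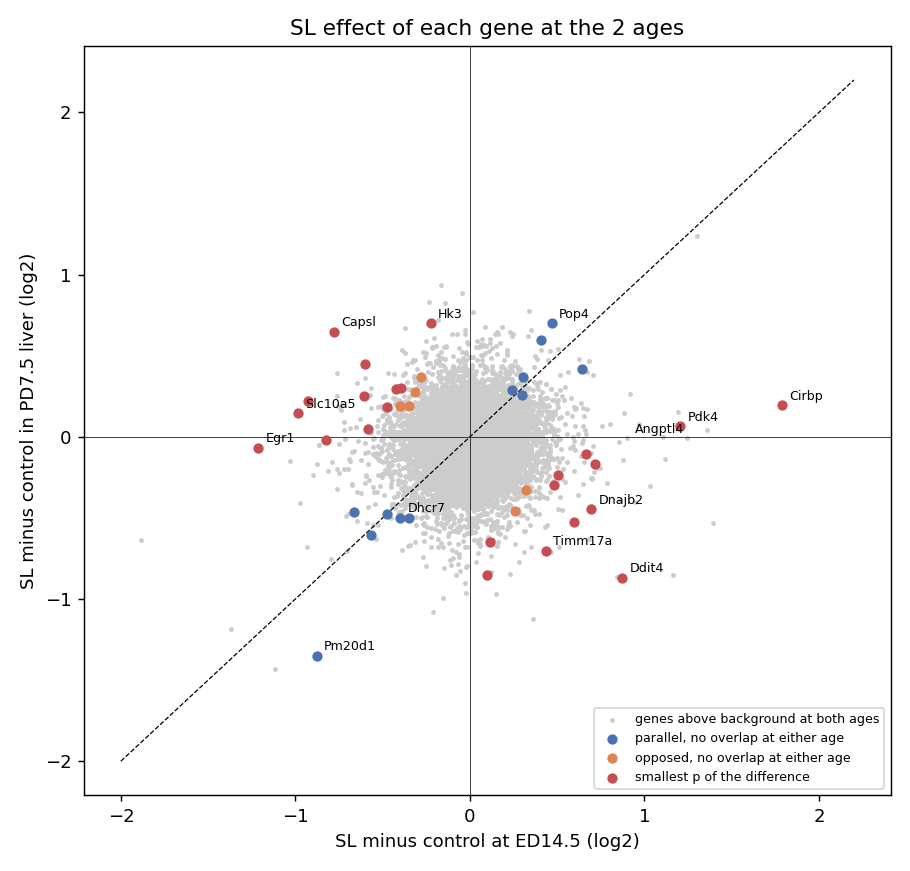
SL minus control (log2) at ED14.5 on the horizontal axis and in PD7.5 liver on the vertical axis for the 9672 genes above background at both ages (grey), with the dashed line marking equal effects. Genes with the smallest p of the difference are red, opposed genes orange and parallel genes blue, and Cirbp lies farthest right of the named genes, at 1.79 and 0.20.

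The arms did not overlap at either age and had opposite directions for 23 of the 9672 genes (0.238%), 14 of them higher in SL at ED14.5 and 9 lower. The same direction at both ages without overlap was seen for 42 genes (0.434%), 15 higher and 27 lower. At ED14.5 alone, 5.59% of the 9672 genes were higher in SL without overlap and 6.3% lower. In the liver alone these shares were 1.72% and 3.22%. Opposed genes were thus fewer than parallel ones. Whether either exceeds the number that such single-age shares give by coincidence was not tested. The opposed genes are named for their values and not as an excess. Beside Dnajb2, H1f3, Timm17a and Eif2ak2, the opposed genes that were higher in SL at ED14.5 included Rnf26, a ubiquitin ligase (0.32 at ED14.5 and -0.33 in the liver), and Mrto4, a ribosome assembly factor (0.26 and -0.46). The opposed genes lower at ED14.5 included Tec, a tyrosine kinase (-0.39 and 0.30), Wrnip1, a helicase-interacting ATPase (-0.42 and 0.29), Shprh, a ubiquitin ligase of DNA damage tolerance (-0.28 and 0.37), Cyp2c68, a cytochrome P450 (-0.31 and 0.28), Zfp397 (-0.40 and 0.19) and Snx27, an endosomal sorting protein (-0.35 and 0.19).

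Parallel genes give the contrast. Pdk1, a pyruvate dehydrogenase kinase like Pdk4, was 0.41 higher in SL at ED14.5 and 0.60 higher in the liver. In the liver its control arrays read 7.98, 8.25, 8.30 and 8.31 and its SL arrays 8.73, 8.79, 8.81 and 8.90. The interval of its difference of differences ran from -0.19 to 0.56, which does not show that the effects were equal. Pm20d1, an enzyme that joins fatty acids to amino acids, differed by -0.88 at ED14.5 and -1.35 in the liver. Dhcr7, the last enzyme of cholesterol synthesis, differed by -0.40 and -0.50, and C1qa, a complement subunit made by macrophages, by -0.35 and -0.50. Pop4, a subunit of ribonuclease P, differed by 0.47 and 0.70. None of these 5 passed within either age.

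The gene groups were described by their members above background at both ages, with the median difference of differences set beside -0.04 over all 9672 such genes. Of these 9672, 5502 had a negative difference, 4906 were higher in SL by value at ED14.5 and 5507 were lower in the liver. Counts of signs in the lists stand beside these. No member other than Cirbp passed the test in any list. The 4 cold-inducible RNA-binding proteins were all higher in SL by value at ED14.5, and 3 of 4 in the liver. Their difference of differences was negative for 3 of 4, with a median of -0.26. Srsf5, a splicing factor, differed by 0.26 at ED14.5 and 0.30 in the liver, and Rbmx, an RNA-binding protein of the nucleus, by 0.11 and -0.07. Rbm3, the closest relative of Cirbp, read 12.36, 12.45, 12.49 and 12.50 in ED14.5 controls and 12.75, 12.81, 12.81 and 12.95 in ED14.5 SL. Its liver values were 11.95, 12.12, 12.13 and 12.29 against 12.02, 12.08, 12.21 and 12.29. Rbm3 arms were apart at ED14.5 and overlapped in the liver, with differences of 0.38 and 0.03 and a difference of differences of -0.35 (limma adjusted p = 0.468). Heat shock chaperones, which are induced by warming, were lower in SL by value for 13 of 14 genes at ED14.5 and 14 of 14 in the liver, with medians of -0.15 and -0.24. Hsph1 and Chordc1 had ED14.5 differences of -0.98 and -0.86 that passed (limma adjusted p = 0.025 and 0.0353), and their liver differences were -0.41 and -0.05. The heat shock list's difference of differences was split 7 to 7.

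Of 29 fatty acid oxidation and ketogenesis genes on the array, 26 lay above background at both ages. The difference was negative for 23 of these 26, with a median of -0.20. The median SL effect of the 26 was 0.14 at ED14.5, where 21 of 26 were higher, and -0.05 in the liver, where 4 of 26 were higher. Among the members left out, Cyp4a10 and Cyp4a14 were above background on every liver array. They were 0.63 and 0.24 higher in SL there, and neither passed. The ED14.5 median was 0.09 without ED14.5 control replicate 4, and the liver median ran from -0.09 to -0.02 with each array left out in turn. The arms did not overlap at ED14.5 for 9 of 26, all higher in SL, against 5.59% of all genes measured at both ages. The background filter averaged both arms, so a member can pass at ED14.5 through its SL arrays alone. Pex11a was not above background on any ED14.5 control array. Angptl4, a fasting-induced inhibitor of lipoprotein lipase, rose at ED14.5 by 0.90 (limma adjusted p = 0.0168), from 8.49, 8.54, 8.55 and 8.83 to 9.33, 9.52, 9.54 and 9.62. Its liver values were 8.98, 9.14, 9.38 and 9.64 in controls and 9.25, 9.25, 9.28 and 9.33 in SL, a difference of -0.01. Cpt1a, which admits fatty acids to mitochondria, differed by 0.64 and -0.04. These members' differences of differences had limma adjusted p-values from 0.189 for Pdk4 to 0.291 for Cpt1a.

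**Figure D3:**
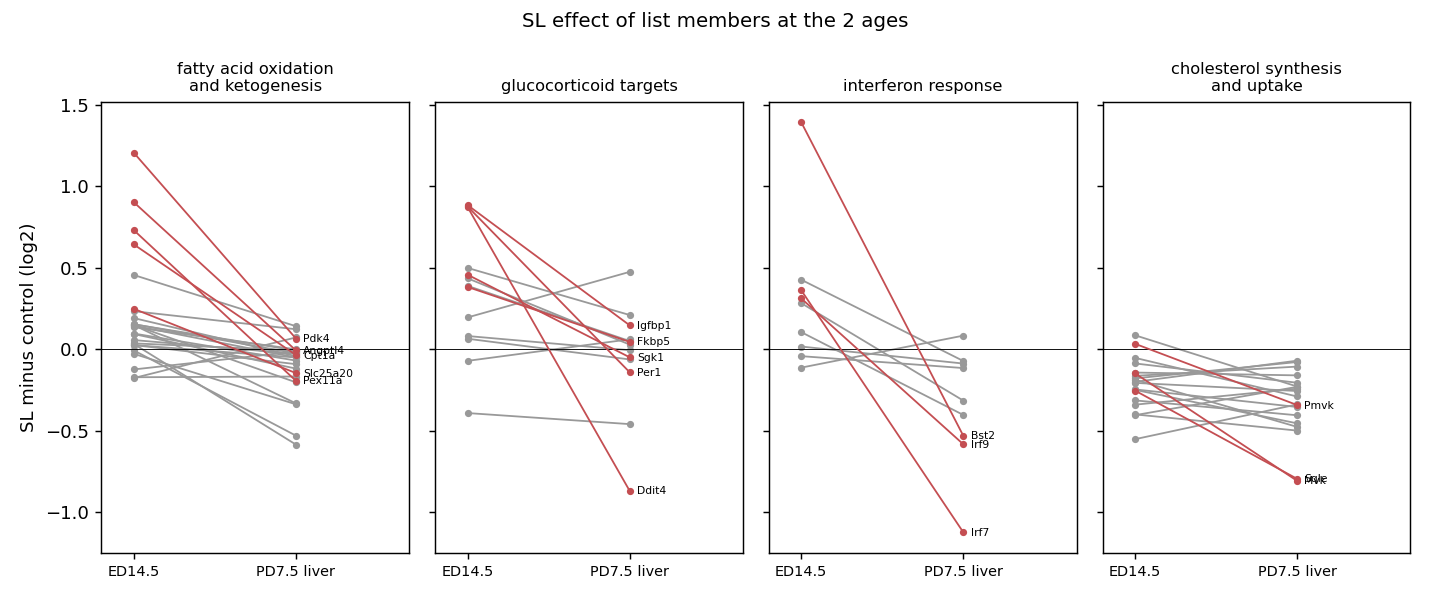
SL minus control (log2) of each member above background at both ages, joined from ED14.5 to PD7.5 liver, for 4 gene lists. Members whose difference between the ages had an unadjusted p below 0.05 are red and named; among these Pdk4, Ddit4, Irf7 and Bst2 ran steeply downward, while cholesterol genes lay mostly below 0 at both ages. Pex11a was not above background on any ED14.5 control array, so its ED14.5 point has no measured control level.

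Glucocorticoid targets had a negative difference for 11 of 13 members, with a median of -0.34. The median SL effect was 0.39 at ED14.5 and 0.03 in the liver, where it ran from -0.02 to 0.06 with each array left out in turn. Without ED14.5 SL replicate 3 the median difference was -0.22. Beside Ddit4, the clock gene Per1 differed by 0.88 at ED14.5 and -0.14 in the liver, Igfbp1, a hepatic binding protein of insulin-like growth factors, by 0.88 and 0.15, and Sgk1, a kinase of salt and stress responses, by 0.46 and -0.05. Per1 read 7.29, 7.43, 7.63 and 7.81 in ED14.5 controls and 8.11, 8.42, 8.47 and 8.66 in ED14.5 SL, with no overlap, and its liver arms overlapped widely.

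Interferon response genes were mostly dim, and 9 of 23 on the array lay above background at both ages. Of these, 8 had a negative difference, with a median of -0.51, a median SL effect of 0.28 at ED14.5 and -0.32 in the liver. With each array left out in turn the ED14.5 median ran from 0.10 to 0.41, lowest without ED14.5 control replicate 4 and below 0.2 also without ED14.5 SL replicate 2 or 4. The liver median ran from -0.46 to -0.15, nearest to 0 without liver SL replicate 4, and was also closer to 0 without liver control replicate 1 or 3 or liver SL replicate 2. With the mean of the erythroid markers as a covariate, described further on, the liver median was -0.16. Irf7, the main inducible transcription factor of this response, read 5.83, 5.94, 6.51 and 6.65 in ED14.5 controls and 5.90, 6.10, 7.15 and 7.22 in SL, which overlap, and it was above background on 2 of these controls and 3 of these SL arrays. In the liver it read 7.27, 7.77, 7.78 and 7.82 against 6.03, 6.48, 6.77 and 6.86, which do not. Its difference of differences was -1.48 with an SE of 0.416 (limma adjusted p = 0.284). Irf9, a subunit of the interferon-activated factor ISGF3, differed by 0.31 and -0.58, and Bst2, an antiviral membrane protein, by 1.39 and -0.53. Bst2 was wide in controls, from 6.27 to 8.32 at ED14.5 and from 7.87 to 9.57 in the liver. The 7 antigen presentation genes all had a negative difference, with a median of -0.33, and Tap1, the peptide transporter, differed by 0.43 and -0.18. Without ED14.5 control replicate 4 the antigen presentation median was -0.19.

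Cholesterol synthesis and uptake genes were lower in SL by value at both ages, 17 of 19 at ED14.5 and 19 of 19 in the liver, with medians of -0.20 and -0.29. Their difference of differences was negative for 13 of 19, with a median of -0.10 that was not stable. It was -0.08 to -0.06 with 12 of 19 negative under the 3 scalings, -0.01 with 10 of 19 negative without liver SL replicate 4, and -0.01 with 10 of 19 negative with the erythroid covariate. Without liver control replicate 2 it was -0.03 and without liver SL replicate 1 -0.16. Mvk, mevalonate kinase, read 7.46, 7.67, 7.70 and 7.76 in control liver and 6.32, 6.71, 7.12 and 7.22 in SL liver, with no overlap, and overlapped at ED14.5. It differed by -0.15 and -0.81 (limma adjusted p of the difference = 0.424). Sqle, squalene epoxidase, differed by -0.25 and -0.80. Thrsp, a lipogenic regulator, fell outside the genes measured at both ages, since it was above background on 3 of 16 arrays.

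**Figure D4:**
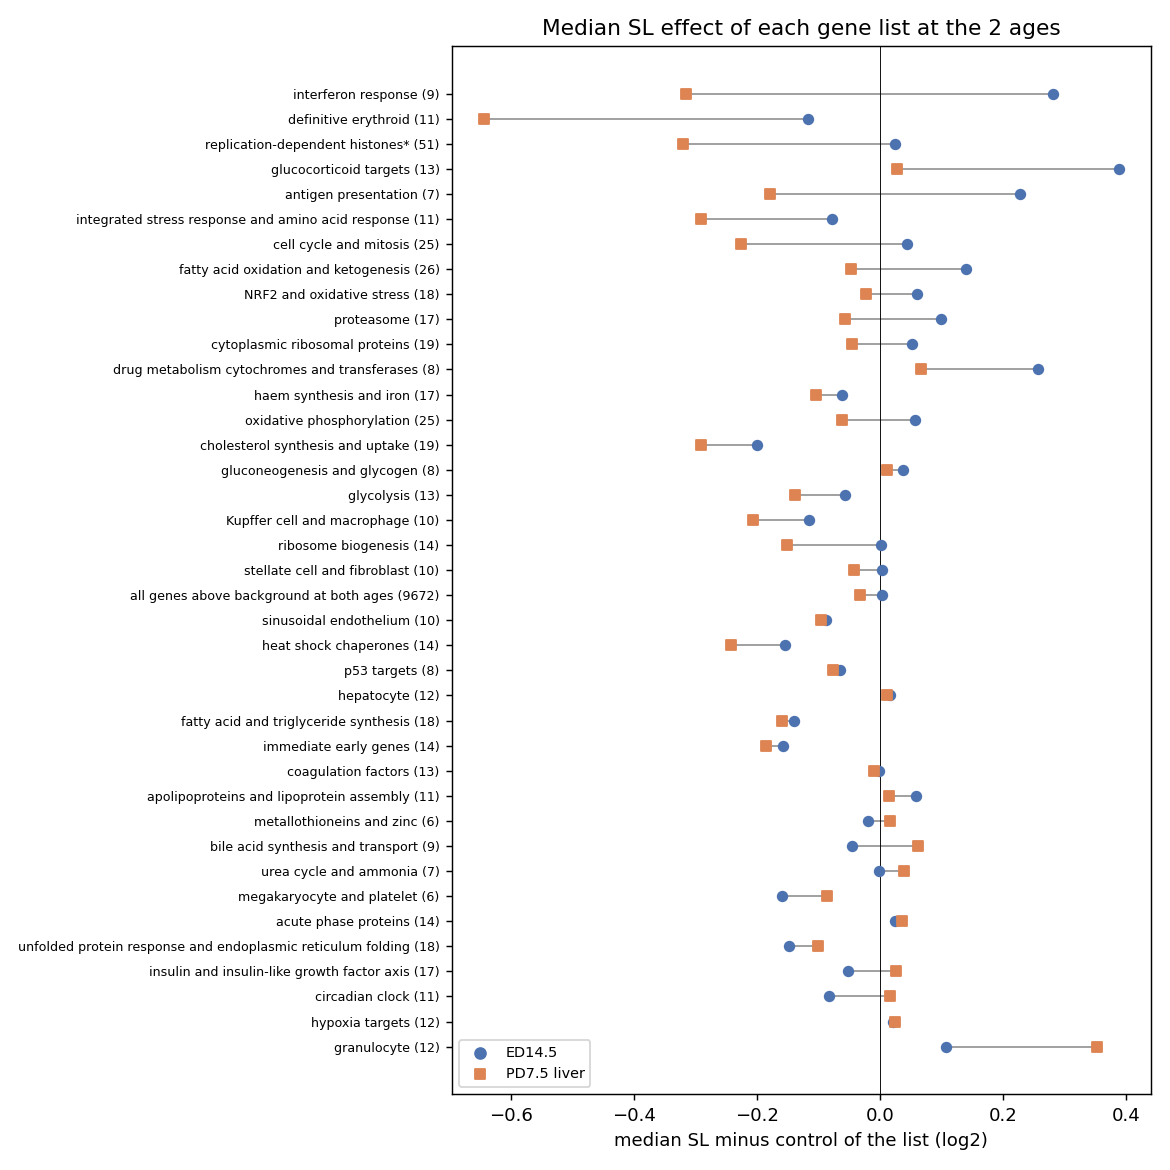
Median SL minus control (log2) of each gene list at ED14.5 (circles) and in PD7.5 liver (squares), for lists with 5 or more members above background at both ages, the number of members in brackets, ordered by the median difference; * marks a list chosen after its values were seen. Interferon, erythroid, antigen presentation, glucocorticoid and histone lists have wide negative gaps and the granulocyte list a positive one.

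Genes of NRF2 and oxidative stress had a negative difference for 14 of 18 members, with a median of -0.19. Glo1, which detoxifies methylglyoxal, read 10.82, 10.83, 10.83 and 10.88 in ED14.5 controls and 11.46, 11.50, 11.52 and 11.67 in ED14.5 SL, a difference of 0.70, and -0.25 in the liver. Integrated stress response genes had a negative difference for 10 of 11, with a median of -0.28 that lay between -0.19 and -0.15 without any 1 of liver control replicates 2 and 3 and liver SL replicates 1 and 4. Negative differences were also seen for proteasome subunits (16 of 17, median -0.18), cytoplasmic ribosomal proteins (17 of 19, median -0.16) and oxidative phosphorylation genes (19 of 25, median -0.10). The oxidative phosphorylation median was -0.06 with 17 of 25 negative under each of the 3 scalings, and -0.04 without liver control replicate 1. Under the 3 scalings the proteasome median was -0.15 to -0.14 with 15 of 17 negative. The ribosomal protein median was -0.12 with 15 or 16 of 19 negative, and the NRF2 median -0.16 to -0.15 with 11 of 18 negative. Without liver control replicate 3 the NRF2 median was -0.13. Hepatocyte markers had a median of -0.01 over 12 genes. Albumin (Alb) differed by -0.02 at ED14.5 and 0.01 in the liver, and alpha-fetoprotein (Afp), its fetal counterpart, by -0.06 and -0.27.

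Cell cycle and mitosis genes had a negative difference for 24 of 25 members, with a median of -0.23. The median SL effect was 0.04 at ED14.5 and -0.23 in the liver, where 24 of 25 were lower by value. The liver median was -0.05 without liver SL replicate 4, -0.09 without liver control replicate 2, and 0.08 with the erythroid covariate. Cdk1, the kinase of mitotic entry, read 8.23, 8.38, 8.66 and 9.07 in control liver and 7.56, 7.97, 8.36 and 8.58 in SL liver, which overlap, and it differed by 0.18 and -0.46. Replication-dependent histones, a list chosen after its values were seen, had a negative difference for 48 of 51, with a median of -0.34. At unadjusted p below 0.05, 15 of 51 were negative, against 6.31% of all genes measured at both ages. Because the list was chosen with these values known, that count is a description and not a test. H3c14 and H3c15 had identical means and SDs in every group, with a difference of -0.31 for both, so these counts hold them as a repeated measurement. Other related members within a histone family may share probe sequence, so they may not be separate measurements either.

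In the liver, erythroid markers were lower by value in SL beside the cell cycle genes and histones, while at ED14.5 the medians were -0.12 for the erythroid markers, 0.04 for the cell cycle genes and 0.02 for the histones. All 11 definitive erythroid markers had a negative difference, with a median of -0.49 and a median SL effect of -0.64 in the liver, or -0.19 without liver SL replicate 4 and -0.40 without liver control replicate 2. Their mean per array was 8.14 to 8.97 in control liver and 6.78 to 8.45 in SL liver, and the cell cycle mean was 8.89 to 9.56 and 8.45 to 9.21. With the mean of the erythroid markers as a covariate, an alternative added after the data had been seen, the cell cycle median was -0.01 with 14 of 25 negative, the histone median -0.17 with 43 of 51 negative, and the interferon median -0.51 with 8 of 9 negative. Fatty acid oxidation and glucocorticoid medians were -0.25 and -0.35. That fit used a common slope for both ages. With group means removed, the erythroid mean correlated with the cell cycle mean at 0.936 over the 8 liver arrays. Over the 8 ED14.5 arrays the correlation was 0.054. For the histones it was 0.785 in the liver and -0.618 at ED14.5. The erythroid mean ran only from 11.2 to 11.33 in ED14.5 controls and from 11.09 to 11.23 in ED14.5 SL. The ED14.5 correlations therefore rest on little spread, and whether the common slope describes both ages was not settled. The SL liver array of replicate 4 had the lowest erythroid mean. Without it the erythroid median was -0.10, the cell cycle median -0.12 with 17 of 25 negative, and the histone median -0.22. Without liver control replicate 2, which had the highest erythroid mean, the erythroid and cell cycle medians were -0.28 and -0.10. Granulocyte markers went the other way, positive for 10 of 12 with a median of 0.27, or 0.08 without liver control replicate 4 and 0.18 without ED14.5 SL replicate 3. Csf3r, the receptor of granulocyte colony-stimulating factor, differed by -0.42 at ED14.5, against a list median of 0.11 there, and by 0.31 in the liver. Retnlg, a secreted protein of neutrophils, went against the list, at 0.60 and -0.03 (difference of differences -0.62, limma adjusted p = 0.497). The part of cell content in the results was not tested further.

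**Figure D5:**
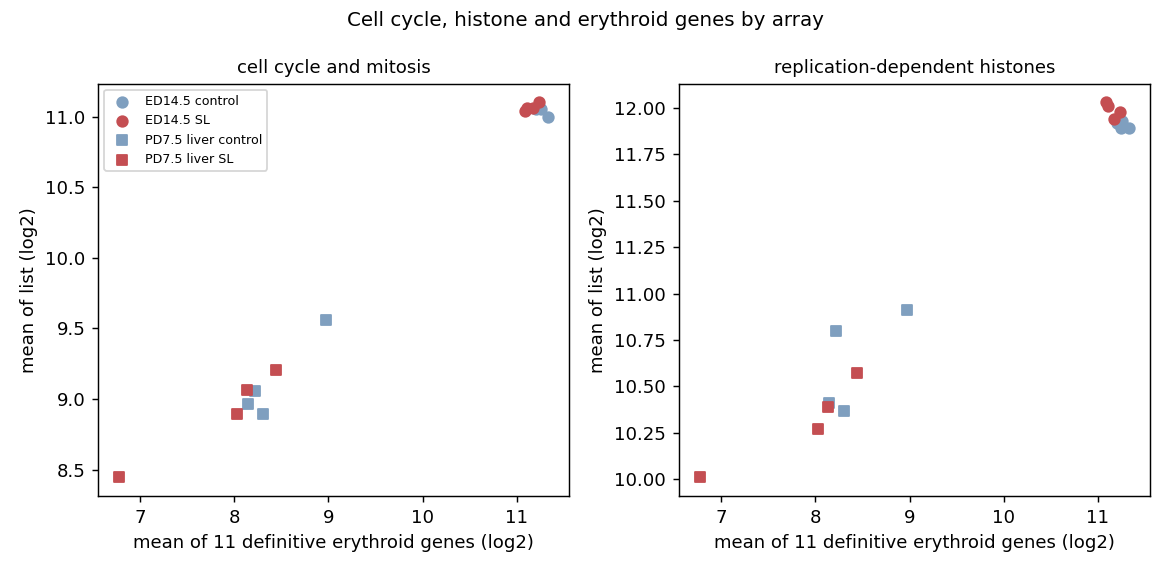
Mean log2 value of the cell cycle list (left) and of the replication-dependent histones (right) against the mean of 11 definitive erythroid markers, 1 point per array, with control in blue, SL in red, ED14.5 as circles and PD7.5 liver as squares. The SL liver array with the lowest erythroid mean, 6.78, also has the lowest mean of both lists, and the ED14.5 arrays lie together at the upper right.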

How the data were processed

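Total RNA was profiled on single-colour arrays. The deposited log2 values came from RMA and oligo, per the submitters' processing notes. Versions and a joint run of the arrays are not stated there, and log2 is inferred from the values. Nothing further was normalized. Of 29129 probe sets, 19572 named 1 gene, and the brightest per gene gave 19505 genes. The background of an array was the 75th percentile of its 5222 negative control probe sets, read as intron controls from their identifiers. A gene was above background at an age where its mean over the 8 arrays was. Groups came from the labels. A group-means model of the 16 arrays was fitted in limma 3.58.1 (R 4.3.3, data.table version 1.17.8), with two-sided p-values adjusted over 19505 genes by Benjamini-Hochberg at 0.05. The fit was tested on simulated data, with 50 genes at each added difference. It recovered 46% at a difference of 1, 44% at -1, 92% at 2 and 94% at -2. Of its calls 2.13% were false. Differences near 1 can thus be missed. The simulated noise was normal and independent between genes, without shifts shared by an array, so these rates may not hold for the real arrays. Named genes were the 12 with the smallest p per direction, 6 opposed and 6 parallel per direction, 2 per list and 10 anchors. The members and lists were chosen with earlier results of these data known. Alternatives covered the variance model, weights, blocks, filters, scaling, probe sets, covariates and each array. The number of arrays limits the precision. ED7.5 arrays entered only the 24-array alternative.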

Additional observations from a re-analysis of the deposited data

Results flagged for a closer look

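Cirbp was singled out because its SL effect differed between the ages by a test of the difference itself, at -1.59 in log2 (limma adjusted p = 0.00143). On 1 array, ED14.5 control replicate 1, both array measures stood apart from the other 3: background was 6.51 against 5.98 to 6.04, a gap of 0.888 of the group's range, and the separation of control probe sets was 0.885 against 0.922 to 0.927, a gap of 0.886. Without that array Cirbp differed by -1.59 and ED14.5 calls were 14.

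Single arrays stood apart for 25 gene and group pairs of 492, where chance gives about 1 in 20; the figure given is the gap to the nearest of the other 3 arrays as a share of the group's range. In ED14.5 control they were Wrnip1 (0.832), Cyp2c68 (0.963), Pdk1 (0.912), Nme7 (0.899), Ubash3a (0.858), Glo1 (0.85), Sesn1 (0.871), Igfbp1 (0.864), F12 (0.912), Rrp9 (0.8294), Retnlg (0.832) and Sox9 (0.867). In ED14.5 SL they were Pdk4 (0.879), Egln3 (0.853), F12 (0.896), Cox4i1 (0.977) and Retnlg (0.875). In PD7.5 liver control they were Mrto4 (0.866), Nme7 (0.927), Crp (0.834), Retnlg (0.864) and Irf7 (0.917). In PD7.5 liver SL they were Wrnip1 (0.865), Dnajb2 (0.871) and Selenos (0.981). Among the genes described, Pdk4 in ED14.5 SL had 1 array at 7.91 above 7.20 to 7.28, Irf7 in liver control had 1 at 7.27 below 7.77 to 7.82, and Dnajb2 in liver SL had 1 at 7.88 below 8.14 to 8.18.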

How the results depend on the processing

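Cirbp kept its direction in all 30 alternatives, from -1.66 to -1.50, and its call in all but the replicate block of age by number, where its adjusted p was 0.0913 (0.0149 with the number alone as a block). The genes called for the difference numbered 16 with an intensity trend and robust prior, 5 with all 24 arrays, 15 with only genes above background at both ages, 12 with only genes above it on all 16 arrays, 0 with the replicate block of age by number, and 1 to 2 with each array left out. Agxt joined without ED14.5 SL replicate 2 and Ddit4 without liver SL replicate 3. At ED14.5 the counts were 93, 79, 72, 67 and 5 in the same order, 116 with array weights, 14 with the replicate number alone as a block, and 5 to 35 with each array left out, with 14 and 5 without ED14.5 control replicates 1 and 2 and 16, 17 and 6 without ED14.5 SL replicates 1, 2 and 3. In the liver they were 5, 5, 6 and 4 in the first 4 of these, 5 with the erythroid covariate, and 0 to 10 with each array left out, with 2, 6 and 1 without liver control replicates 1, 3 and 4 and 2, 4 and 10 without liver SL replicates 2, 3 and 4. The deviations of same-numbered arrays of the 2 arms correlated at -0.0334, -0.0196, 0.0669 and 0.00673 for ED14.5 replicates 1 to 4 and at -0.0811, 0.264, 0.245 and 0.158 for liver replicates 1 to 4. Liver replicates 2, 3 and 4 correlated best with their own number, a hint of pairing from the data and not from the design, while liver replicate 1 and 3 of 4 ED14.5 replicates did not. The labels give no shared litter or day, so whether the numbers mark one was not settled, and the call lost under the block is not described as a weaker effect. Of 111 named genes' differences 108 kept their sign in all alternatives run; Gp9 was 0.10 with the erythroid covariate, and with each array left out Gp9 ran from -0.223 to 0.0281, Nkg7 from -0.0359 to 0.238 and Krt7 from -0.0450 to 0.441. With the 95th percentile as background, 6029 genes lay above it at both ages. Of the named genes 75 of 122 stayed above it, Cirbp among them. Of the 12 negative genes with the smallest p, Ddit4, Pdk4, Mideas, Bid and Cenpt did not. Of the 12 positive ones, Hk3, Slc10a5, Unc93a, Tec, Capsl, Acnat1 and Nfkbiz did not. Irf7, Mvk, Sgk1, Tap1, C1qa, Pm20d1, Csf3r and Retnlg were also among those below it. The 3 scalings kept the sign of the fatty acid oxidation, glucocorticoid, interferon and cell cycle medians, and the heat shock median changed sign, 0.01 when centred. Genes near background limit what these arrays can show.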
